A study of Mus musculus with 12 samples.

Results

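The 9 genes described here encode 2 BET proteins (*Brd2* and *Brd3*), the kinase and cyclins of P-TEFb (*Cdk9*, *Ccnt1* and *Ccnt2*), the 7SK particle proteins *Hexim1*, *Larp7* and *Mepce*, and *Aff4*, the scaffold of the super elongation complex. They were named by their roles, with earlier results of these data known, and all 9 were found among the 15651 genes of the table. BET proteins read acetylated histones through their bromodomains and bring P-TEFb to chromatin. P-TEFb, made of CDK9 and a T-type cyclin, phosphorylates the tail of RNA polymerase II and the factors that hold it paused near the start of genes, so that elongation begins. Much of the cell's P-TEFb is kept inactive in a particle built on the 7SK RNA, where HEXIM1 blocks the kinase, MEPCE caps the RNA and LARP7 stabilizes it, and P-TEFb that leaves this particle can enter the super elongation complex on AFF4. In leukemia, both BET proteins and the super elongation complex are best known for sustaining the transcription of growth genes.

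RNA was sequenced from c-Kit+ (CD117) cells enriched from the spleens of moribund mice with acute myeloid leukemia (AML), 3 of each genotype, on a C57BL6/J background. *D/F* mice carried Dnmt3a fl/fl, Flt3 ITD/ITD and Mx1Cre, and *T/F* mice carried Tet2 fl/fl, Flt3 ITD/ITD and Mx1Cre, so the Flt3 internal tandem duplication and the Cre were common to all groups. The interferon-inducible Mx1Cre was not induced with pIpC, so deletion rested on its leaky expression, and 1 or both floxed alleles may be deleted. Each mouse, as read from the number shared by library names, gave 1 portion of cells for CCS1477 (inobrodib) and 1 for its solvent DMSO. CCS1477 is an inhibitor of the p300 and CBP bromodomains. Both portions were kept for 6 hours in medium with stem cell factor, IL-6 and IL-3, which gave 12 libraries in 4 groups of 3. The dose was 4 µM in *D/F* and 2 µM in *T/F*, and genotype and dose cannot be told apart.

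Values are TPM, an abundance corrected for transcript length and relative to the rest of the library, which summed to between 914204 and 931697 TPM per library. TPM keeps no read numbers, so depth is unknown and the spread between mice serves as the error of a value. *Dnmt3a* overlapped between genotypes (29.3 to 55.7 TPM in *D/F* and 39.9 to 57.2 TPM in *T/F* libraries), while the *Tet2* libraries of *T/F* lay below those of *D/F* with DMSO and with CCS1477. *Myc*, a check of the treatment labels, was at 378 ± 84.7 TPM with DMSO and 19.2 ± 1.48 TPM with CCS1477 in *D/F* AML, and at 268 ± 40.9 and 23.8 ± 4.01 TPM in *T/F* AML (SD, n = 3). The progenitor markers *Kit*, *Flt3*, *Cd34*, *Mpo* and *Myb* were present, with *Kit* at 22.8 to 149 TPM, while *Ptprc*, which encodes the pan-leukocyte antigen CD45, was at only 0.826 to 3.11 TPM. *D/F* replicate 2 stood apart from the other *D/F* mice, with a correlation across genes of 0.945 to 0.956 against 0.978 to 0.982 between the other two.

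The response to CCS1477 was tested with limma on log2(TPM + 1), with Benjamini-Hochberg adjustment over all genes tested, and a gene passed at an adjusted p under 0.05. In *T/F* AML, 6 of the 9 genes rose (*Hexim1*, *Brd2*, *Aff4*, *Brd3*, *Mepce* and *Cdk9*) and none fell, where 25.8% of the 15256 genes tested rose. In *D/F* AML, *Hexim1* and *Brd2* rose, 2 of the 9 genes, where 5.14% of the 15501 genes tested rose. The same 2 genes were the ones above 2-fold in both genotypes, where 2.67% of all genes rose above 2-fold for *D/F* and 2.63% for *T/F*. With the DMSO and CCS1477 cells of a mouse paired, *Aff4* and *Mepce* also rose in *D/F*, making 4 of 9 against 21.4% of all genes. The median log2 change of the 9 genes was 0.20 for *D/F* and 0.32 for *T/F*, beside 0.057 and 0.075 over all genes tested. *Ccnt1*, *Ccnt2* and *Larp7* did not pass in either genotype, paired or unpaired.

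Because the cells were a bulk population, fewer cells of a type and less RNA per cell cannot be told apart in these values. The summed TPM of the 6 progenitor markers (*Kit*, *Flt3*, *Cd34*, *Mpo*, *Ptprc* and *Myb*) was 2212 to 4177 with DMSO and 489.8 to 1724 with CCS1477 in *D/F*, and 1815 to 2595 and 712 to 1223 in *T/F*. Of these 6, 1 fell in *D/F* and 4 fell in *T/F*, where 6.51% and 17.6% of all genes fell. With the mice paired 5 and 6 fell, where 18% and 22.9% of all genes fell. Macrophage markers, 3 of 4 of which are in the table, summed to 58.0 to 70.0 and 23.5 to 34.0 TPM in *D/F* and to 78.7 to 97.4 and 36.4 to 47.2 TPM in *T/F*. Of these 3, 3 fell in *D/F* and 2 in *T/F*, or 3 with the mice paired. The 4 mature neutrophil markers varied widely between mice. They summed to 513 to 2516 TPM with DMSO and 347 to 2331 TPM with CCS1477 in *D/F*, and to 437 to 1454 and 449 to 1617 TPM in *T/F*. None of them passed in *D/F* (limma), where 2 fell with the mice paired. In *T/F* 1 fell, and with the mice paired 1 rose and 2 fell. The means of *Camp* and *Mmp8* were lower with CCS1477 in both genotypes, and those of *Ltf* and *Ngp* were not. Erythroid markers (3 of 4 in the table) stayed at or under 12.96 TPM and T cell markers (2 of 4, without *Cd3e* and *Cd3g*) at or under 21.2 TPM in sum. Of the 4 stromal and endothelial markers the table holds *Pecam1*, which blood cells also express and which fell in both genotypes. It was at 92.8 to 149 TPM with DMSO and 18.9 to 24.6 TPM with CCS1477 in *D/F*, and at 56.2 to 71.5 and 15.1 to 21.7 TPM in *T/F*. Of the 4 B cell markers it holds *Cd79b*, at 10.4 to 22.8 and 3.64 to 8.22 TPM in *D/F*, which fell there with the mice paired, and at 15.3 to 18.1 and 10.9 to 13.4 TPM in *T/F*, where it fell in both fits. Megakaryocyte markers (3 of 4 in the table) summed to 32.6 to 199 and 20.1 to 63.9 TPM in *D/F*, where none passed (limma) and 2 fell with the mice paired, and to 47.5 to 54.0 and 31.9 to 34.4 TPM in *T/F*, where 1 fell, or 3 with the mice paired. The part of these shifts in the results below was not tested.

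**Figure D1:**
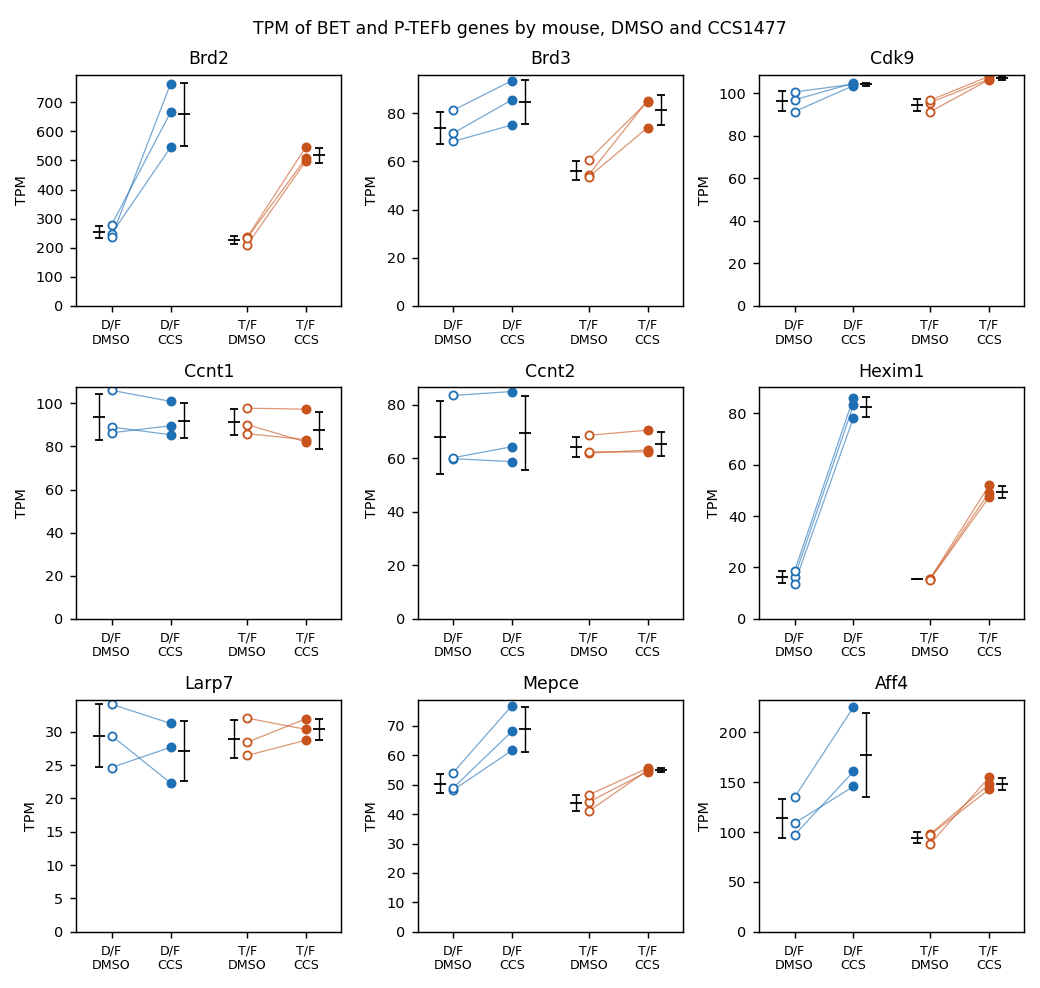
TPM of the 9 genes in every library, 1 panel per gene, with DMSO as open and CCS1477 as filled points, *D/F* in blue and *T/F* in orange; lines join the cells of 1 mouse, and black bars give the mean ± SD of 3 mice. *Hexim1*, *Brd2*, *Mepce*, *Aff4* and *Cdk9* do not overlap between treatments in either genotype, while *Ccnt1*, *Ccnt2* and *Larp7* do. The share of all genes without overlap was not computed.

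The sequence just upstream of 4 of the genes is shown here because *Hexim1* and *Brd2* are the genes that rose above 2-fold in both genotypes, *Aff4* rose less in *T/F*, and *Ccnt2* did not pass in either. RefSeq start sites on GRCm38.p6 were matched for 8 of the 9 genes, all but *Mepce*, and the 250 bases before the start nearest to the principal GENCODE transcript were searched on both strands for 6 motifs. For *Ccnt1* that start lies 3187 bases from the principal GENCODE start, so its window is inside the gene. The windows of *Brd3* and *Cdk9* end at the principal start but also lie inside the annotated span of the gene. The *Ccnt1* window, with 2 GC boxes and 1 ETS motif, is counted among the 8, as are those of *Brd3* and *Cdk9*. The E-box was searched by the letters CACGTG. The GC box, which Sp1-like factors bind, was searched by the letters GGGCGG. The TATA box, which lies before many start sites, was searched by the letters TATAAA. The CCAAT box was searched by the letters in its name. The cyclic AMP response element, or CRE, was searched by the letters TGACGTCA. The motif of the ETS family of factors was searched by the letters CCGGAAG. Capitals mark a match or its reverse complement. Only bases before both the RefSeq and the GENCODE start are printed, 5′ to 3′ on the gene's strand.
*Hexim1* (chr11:103116075-103116230, plus strand): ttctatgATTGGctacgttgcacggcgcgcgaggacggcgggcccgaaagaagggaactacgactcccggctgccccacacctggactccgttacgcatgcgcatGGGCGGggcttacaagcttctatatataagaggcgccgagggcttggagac
*Brd2* (chr17:34122635-34122857, minus strand): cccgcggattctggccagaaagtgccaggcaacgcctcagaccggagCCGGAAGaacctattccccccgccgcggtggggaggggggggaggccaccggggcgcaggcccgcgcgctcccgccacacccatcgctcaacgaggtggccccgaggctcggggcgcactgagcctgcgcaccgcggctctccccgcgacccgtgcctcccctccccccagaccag
*Aff4* (chr11:53350517-53350766, plus strand): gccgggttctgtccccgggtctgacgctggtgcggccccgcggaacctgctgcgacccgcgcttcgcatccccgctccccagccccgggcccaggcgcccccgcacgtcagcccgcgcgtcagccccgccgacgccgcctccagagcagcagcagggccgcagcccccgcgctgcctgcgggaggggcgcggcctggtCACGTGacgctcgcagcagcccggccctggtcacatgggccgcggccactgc
*Ccnt2* (chr1:127773914-127774163, plus strand): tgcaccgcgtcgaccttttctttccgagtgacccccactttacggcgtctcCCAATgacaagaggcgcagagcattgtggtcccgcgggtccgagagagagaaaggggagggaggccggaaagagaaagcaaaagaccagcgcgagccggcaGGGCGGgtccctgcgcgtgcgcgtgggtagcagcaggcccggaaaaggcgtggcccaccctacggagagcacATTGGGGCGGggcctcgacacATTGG
The *Hexim1* stretch holds a CCAAT box at -243 and a GC box at -145 from the RefSeq start. The *Brd2* stretch holds an ETS motif at -203 and none of the other 5, and the *Aff4* stretch holds an E-box at -52 alone. *Ccnt2* has 3 CCAAT boxes and 2 GC boxes, and 1 of each overlap by 1 base. Over the 8 windows, a GC box was found in 6, a CCAAT box in 4, an ETS motif in 3, an E-box in 1, a CRE in 1 (*Larp7*) and the letters TATAAA in 0. The *Hexim1* stretch holds the run tatataag near its end, which the letters TATAAA do not match. The search therefore does not show that looser forms of the TATA box are absent. Among 32851 RefSeq windows of the same length, 32.7% held a GC box, 33.8% a CCAAT box, 6.91% an ETS motif, 6.02% an E-box, 1.55% a CRE and 12.4% a TATA box. A match is only a match of letters, and these windows do not divide the genes that rose from those that did not by any of the 6 motifs.

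*Hexim1* (ENSMUSG00000048878), which encodes the protein that inhibits CDK9 within the 7SK particle, is a single-exon gene at chr11:103116231-103119725 on the plus strand of GRCm38. With DMSO it was at 16.3, 18.5 and 13.7 TPM in *D/F* replicates 1, 2 and 3, and with CCS1477 at 83.2, 86.0 and 78.3 TPM. In *T/F* it was at 15.6, 15.5 and 15.3 TPM with DMSO and at 51.9, 49.1 and 47.3 TPM with CCS1477. Every CCS1477 library lay far above every DMSO library, and with CCS1477 every *D/F* library lay above every *T/F* library. *Hexim1* rose by a log2 change of 2.29 in *D/F* (standard error, SE, 0.16, limma adjusted p = 0.0031) and of 1.61 in *T/F* (SE 0.06, limma adjusted p = 0.000242). It ranked 16 among 15501 genes by the size of its rise in *D/F* and 42 among 15256 in *T/F*. Mouse by mouse the TPM ratio was 5.11, 4.65 and 5.70 for the *D/F* mice and 3.33, 3.16 and 3.10 for the *T/F* mice. The exact permutation test gave p = 0.1 in each genotype, the smallest that 3 samples against 3 allow.

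*Larp7* and *Mepce* encode the other protein subunits of the particle. *Mepce* was at 48.2, 54.1 and 48.9 TPM in *D/F* with DMSO and at 61.7, 77.0 and 68.2 TPM with CCS1477. The *T/F* mice had 41.0, 44.1 and 46.6 TPM with DMSO and at 54.9, 54.5 and 55.6 TPM with CCS1477. The treatments did not overlap in either genotype, and *Mepce* was higher with CCS1477 in 6 of 6 mice. The log2 change was 0.32 in *T/F* (SE 0.07, limma adjusted p = 0.0127), which passed, and 0.44 in *D/F* (SE 0.15, limma adjusted p = 0.111), which passed with the mice paired (limma adjusted p = 0.0244). In *T/F* the call was lost without replicate 1 (adjusted p = 0.102) and without replicate 2 (adjusted p = 0.101).

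*Larp7* was at 24.6, 29.4 and 34.1 TPM in *D/F* with DMSO and at 27.7, 22.3 and 31.3 TPM with CCS1477. Among *T/F* mice it was at 32.1, 26.5 and 28.4 TPM and at 30.4, 28.8 and 32.0 TPM. The treatments overlapped in both genotypes, with 3 of 6 mice higher under CCS1477. Its log2 change of -0.11 in *D/F* had a 95% interval of -0.59 to 0.36, and that of 0.07 in *T/F* one of -0.15 to 0.29. The ratio of *Larp7* to *Mepce* TPM was 0.585 ± 0.09995 with DMSO and 0.399 ± 0.0945 with CCS1477 for *D/F*, and 0.664 ± 0.102 and 0.552 ± 0.0235 for *T/F* (SD, n = 3). That ratio was lower with CCS1477 in each mouse, and the groups did not overlap (exact permutation p = 0.1 in each genotype).

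*Cdk9*, the kinase of P-TEFb, was nearly level. It was at 96.9, 100.6 and 91.3 TPM in *D/F* with DMSO and at 104.7, 104.2 and 103.6 TPM with CCS1477. For *T/F* these values were 91.2, 95.5 and 96.7 TPM with DMSO and at 106.3, 106.6 and 107.9 TPM with CCS1477. The treatments did not overlap in either genotype, although the shift was small beside that of *Hexim1*. The log2 change was 0.11 in *D/F* (SE 0.13, limma adjusted p = 0.612) and 0.18 in *T/F* (SE 0.06, limma adjusted p = 0.0498). The *T/F* call sat at the threshold: it was lost with a pseudocount of 0.1 (adjusted p = 0.0506), after rescaling libraries to their median gene (0.10, adjusted p = 0.294), in a shared fit of all groups (adjusted p = 0.138) and without any 1 of the *T/F* mice.

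The T-type cyclins *Ccnt1* and *Ccnt2*, the alternative regulatory subunits of P-TEFb, did not pass in either genotype. *Ccnt1* was at 89.0, 106.1 and 86.4 TPM in *D/F* with DMSO and at 85.4, 100.9 and 89.6 TPM with CCS1477, and in *T/F* at 85.9, 90.1 and 97.8 TPM and at 83.2, 82.1 and 97.3 TPM. *Ccnt2* was at 59.8, 83.4 and 60.1 TPM in *D/F* with DMSO and at 58.7, 84.9 and 64.3 TPM with CCS1477, and in *T/F* at 61.8, 62.4 and 68.5 TPM and at 63.0, 62.3 and 70.4 TPM. *Ccnt1* was lower with CCS1477 in 2 of 3 *D/F* mice and 3 of 3 *T/F* mice. Within *D/F* both were highest in replicate 2 whatever the treatment, so the spread between *D/F* mice exceeded the difference between treatments. The 95% interval of the log2 change was -0.41 to 0.35 for *Ccnt1* and -0.49 to 0.55 for *Ccnt2* in *D/F*, and -0.29 to 0.17 and -0.18 to 0.22 in *T/F*, so a change of 2-fold lies outside all of these intervals. *Ccnt1* overlaps the antisense gene *9330020H09Rik*, which was at 4.09 to 7.63 TPM over all libraries.

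With *Hexim1* far higher and P-TEFb nearly level, the ratio of transcripts for the inhibitor to those for the kinase moved. *Hexim1* per *Cdk9* was 0.168 ± 0.0168 with DMSO and 0.792 ± 0.0347 with CCS1477 for *D/F*, and 0.164 ± 0.00651 and 0.462 ± 0.0247 for *T/F* (SD, n = 3). The 2 genotypes overlapped with DMSO (exact permutation p = 0.8) and did not overlap with CCS1477 (exact permutation p = 0.1). *Hexim1* per summed *Ccnt1* and *Ccnt2* was 0.1003 ± 0.00823 with DMSO and 0.516 ± 0.0576 with CCS1477 for *D/F*, and 0.0998 ± 0.00703 and 0.326 ± 0.0385 for *T/F*. *Cdk9* per summed cyclin T was 0.602 ± 0.0629 and 0.653 ± 0.0844 in *D/F*, where the treatments overlapped, and 0.608 ± 0.0238 and 0.703 ± 0.0520 in *T/F*, where they did not. These are ratios of RNA and do not measure the proteins or the particle.

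**Figure D2:**
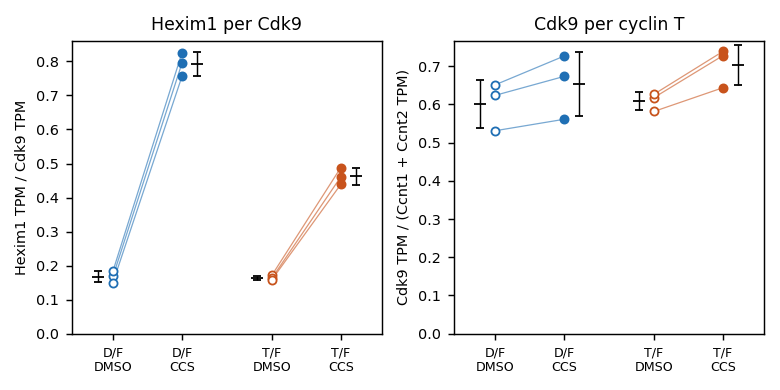
Ratios of TPM in every library (left, *Hexim1* per *Cdk9*; right, *Cdk9* per summed *Ccnt1* and *Ccnt2*), drawn as in the plot of TPM by mouse, with lines joining the cells of 1 mouse and bars for the mean ± SD. *Hexim1* per *Cdk9* lies between 0.150 and 0.184 in all DMSO libraries and between 0.439 and 0.825 in all CCS1477 libraries.

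*Brd2* (ENSMUSG00000024335, chr17:34112023-34122634, minus strand), which encodes a BET protein, was the most abundant of the 9 genes in every group. In *D/F* it was at 279, 248 and 237 TPM with DMSO and at 665, 545 and 763 TPM with CCS1477. In *T/F* it was at 209.9, 236 and 234 TPM with DMSO and at 499, 547 and 508 TPM with CCS1477. All CCS1477 libraries lay above all DMSO libraries, and the CCS1477 libraries of *D/F* overlapped those of *T/F* and reached higher. *Brd2* rose by a log2 change of 1.36 in *D/F* (SE 0.18, limma adjusted p = 0.0103) and of 1.19 in *T/F* (SE 0.08, limma adjusted p = 0.000449). Its locus overlaps *H2-DMa*, an MHC class II chaperone gene on the other strand, and the sources used here do not say whether strand was used, so reads from the overlap cannot be assigned with certainty. *H2-DMa* was at 57.7 ± 27.9 TPM with DMSO and 22.8 ± 2.38 TPM with CCS1477 for *D/F*, and at 65.2 ± 28.2 and 30.6 ± 5.94 TPM for *T/F* (SD, n = 3).

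*Brd3*, the gene of a second BET protein, was at 68.3, 81.2 and 71.7 TPM in *D/F* with DMSO and at 75.1, 93.5 and 85.6 TPM with CCS1477. In *T/F* it was at 54.4, 53.5 and 60.6 TPM with DMSO and at 85.2, 74.0 and 84.8 TPM with CCS1477. The treatments overlapped in *D/F* and not in *T/F*, though each of the 6 mice was higher with CCS1477. The log2 change was 0.53 in *T/F* (SE 0.09, limma adjusted p = 0.00551) and 0.20 in *D/F* (SE 0.16, limma adjusted p = 0.448, and 0.136 with the mice paired). The *T/F* call was lost without *T/F* replicate 1 (adjusted p = 0.0683). The test of the difference between the responses gave 0.33 (SE 0.17, limma unadjusted p = 0.0746), which did not pass, so *Brd3* is not shown to respond differently in the 2 genotypes.

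*Aff4*, which encodes the scaffold that holds P-TEFb and the ELL and MLLT proteins together, was at 109, 135 and 97.1 TPM in *D/F* with DMSO and at 146, 225 and 161 TPM with CCS1477. For *T/F* mice the values were 88.0, 98.0 and 97.0 TPM with DMSO and at 155, 148 and 143 TPM with CCS1477. The treatments did not overlap in either genotype, and *D/F* replicate 2 was the highest *D/F* mouse under both. The log2 changes were close, 0.63 in *D/F* (SE 0.22) and 0.65 in *T/F* (SE 0.07), but the spread was not. By limma, *Aff4* passed in *T/F* (adjusted p = 0.00153) and in *D/F* passed only in other fits (adjusted p = 0.12, and 0.0182 with the mice paired).

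**Figure D3:**
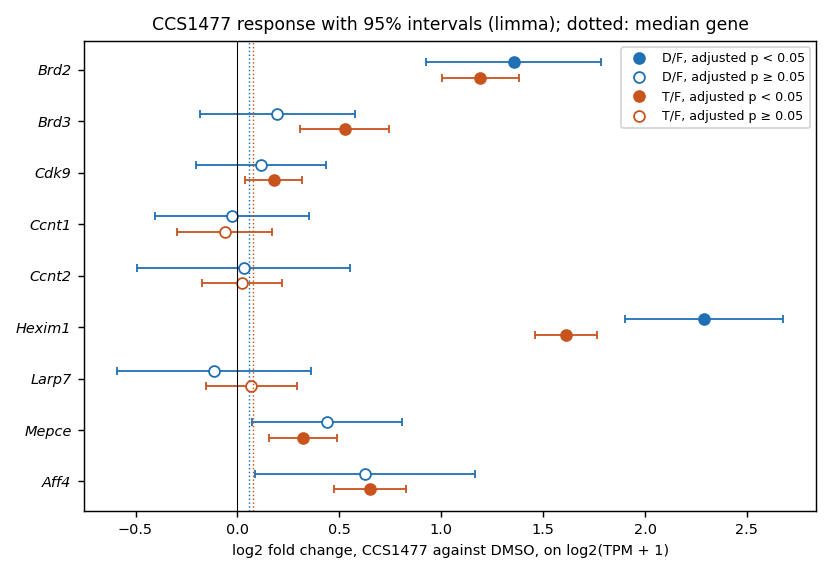
Log2 fold change of the 9 genes with CCS1477 against DMSO on log2(TPM + 1), with 95% intervals from limma; *D/F* in blue, *T/F* in orange, filled where the adjusted p is under 0.05. Dotted lines mark the median gene (0.057 in *D/F*, 0.075 in *T/F*). *Hexim1* and *Brd2* lie above 1 in both genotypes, and the intervals of *Ccnt1*, *Ccnt2* and *Larp7* include 0 in both.

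In a fit over all 12 libraries that carried genotype as a term, 5 of the 9 genes rose and none fell, where 25.8% of 15583 genes rose. These were *Hexim1* (log2 change 1.95, limma adjusted p = 1.31e-06), *Brd2* (1.27, limma adjusted p = 2.52e-06), *Aff4* (0.64, limma adjusted p = 0.000888), *Mepce* (0.38, limma adjusted p = 0.00143) and *Brd3* (0.36, limma adjusted p = 0.0084). *Cdk9* (0.15, limma adjusted p = 0.0527) missed the threshold and passed with the mice paired (adjusted p = 0.0247), making 6 of 9 where 34.5% of all genes rose. The calls in *D/F* alone rested on which mice were in the fit. Without *D/F* replicate 1, or without replicate 3, limma passed 0 genes of the whole table, while 2 of the 9 genes and 2494 and 2330 of all genes had an unadjusted p under 0.05. Without *D/F* replicate 2, *Hexim1*, *Brd2* and *Aff4* passed, where 3739 of 15191 genes passed. The log2 change of *Hexim1* in *D/F* stayed between 2.22 and 2.36 with any 1 mouse left out, and that of *Brd2* between 1.19 and 1.47.

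The size of the response was compared between the genotypes in a fit of all 4 groups. None of the 9 genes passed, nor did any of 15583 genes (0%), and 1 of the 9 and 659 of all genes had an unadjusted p under 0.05. That 1 gene was *Hexim1*, whose log2 response was smaller by 0.68 in *T/F* than in *D/F* (log2 difference -0.68, 95% interval -1.02 to -0.33, limma unadjusted p = 0.00141 and adjusted p = 0.802, and 0.17 with the mice paired). For *Brd2*, *Mepce*, *Aff4*, *Cdk9*, *Ccnt1*, *Ccnt2* and *Larp7* the difference lay between -0.16 and 0.18 with intervals that included 0. A difference in dose accompanies each of these values.

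Levels were also compared between the genotypes within each treatment. With DMSO none of the 9 passed between *T/F* and *D/F* (limma, 0.0328% of 15265 genes passed). An unadjusted p under 0.05 was found for 1 of the 9, *Brd3*, and for 939 of the 15265 genes. *Brd3* was lower in *T/F* by a log2 difference of -0.39 (95% interval -0.69 to -0.08, limma adjusted p = 0.682), and its libraries did not overlap between genotypes, nor did those of *Brd2* and *Mepce*. The share of all genes without overlap was not computed, so the lack of overlap is a description only. With CCS1477, again none of the 9 passed (limma, 0.0329% of 15199 genes passed). *Hexim1* and *Mepce* had an unadjusted p under 0.05, as did 1643 of the 15199 genes. *Hexim1* with CCS1477 was lower in *T/F* by a log2 difference of -0.73 (95% interval -0.97 to -0.48, limma adjusted p = 0.131), and it passed in a shared fit of all groups (adjusted p = 0.0287). The corresponding *Mepce* value was -0.31 (limma adjusted p = 0.426). With CCS1477 the libraries of *Hexim1*, *Mepce* and *Cdk9* did not overlap between genotypes, and those of *Cdk9* were the higher in *T/F*. The comparison with CCS1477 and that of the responses share the CCS1477 samples.

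The order of the levels shows how far *Hexim1* moved. With DMSO in *D/F*, mean TPM decreased in the order *Brd2*, *Aff4*, *Cdk9*, *Ccnt1*, *Brd3*, *Ccnt2*, *Mepce*, *Larp7* and *Hexim1*, in which *Aff4*, *Cdk9* and *Ccnt1* overlapped their neighbours, as did *Brd3* and *Ccnt2*. In *T/F* the order differed only in that *Cdk9* stood before *Aff4* and *Ccnt2* before *Brd3*. *Brd2* lay above 96.8% of the genes of the table in *D/F* and 96.1% in *T/F*, and *Hexim1*, the lowest of the 9, above 47.5% and 47.9%. With CCS1477 *Hexim1* stood at place 6 of 9 in *D/F*, overlapping *Ccnt1*, *Brd3* and *Ccnt2*, above 87.0% of genes, and at place 8 in *T/F*, above 75.4% of genes. *Larp7* was then the lowest in both genotypes, at 27.1 ± 4.496 and 30.4 ± 1.60 TPM (SD, n = 3).

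The rest of the machinery was read from 6 lists of 47 genes, of which 46 were in the table. The 7SK RNA itself (*Rn7sk*) is not among the rows used here. Of the 46, 5 rose and 2 fell in *D/F*, where 5.14% of all genes rose and 6.51% fell. In *T/F* 19 rose and 9 fell, where 25.8% of all genes rose and 17.6% fell. With the mice paired, 16 rose and 9 fell in *D/F*, where 21.4% of all genes rose and 18% fell. In *T/F* 19 rose and 11 fell when paired, where 22.9% of all genes fell. The share of all genes that rose in the paired *T/F* fit is not given here. Their median log2 change was 0.099 for *D/F* and 0.051 for *T/F*, beside 0.057 and 0.075 over all genes.

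The counts of each list stand beside the shares of all genes. In *D/F* 5.14% rose and 6.51% fell (21.4% and 18% with the mice paired), and in *T/F* 25.8% rose and 17.6% fell. The lists are short, and a count near these shares is not a result about the list. Of 6 other BET and bromodomain genes, 2 rose in *D/F* (3 rose and 1 fell with the mice paired), and 4 rose and 1 fell in *T/F*. *Brdt*, the testis-type BET gene, was above 2-fold in both, but from levels near 0: 0.364 ± 0.146 to 3.46 ± 2.32 TPM in *D/F* and 0.0932 ± 0.0269 to 1.38 ± 0.228 TPM in *T/F* (SD, n = 3). Of 7 genes of the 7SK particle and of P-TEFb release, 1 fell in *D/F* (2 rose and 2 fell with the mice paired), and 2 rose and 2 fell in *T/F* (2 and 3 when paired). *Ddx21*, a helicase that releases P-TEFb from the 7SK particle and also acts in ribosome biogenesis, fell above 2-fold in both genotypes, from 139.6 ± 28.0 to 57.3 ± 13.8 TPM in *D/F* (log2 change -1.28, limma adjusted p = 0.0235) and from 145 ± 9.05 to 60.4 ± 5.44 TPM in *T/F* (-1.25, limma adjusted p = 0.000532). *Hexim2*, the paralog of *Hexim1* and singled out after its values were seen, had log2 changes of 0.61 in *D/F* (limma adjusted p = 0.443, and 0.0147 with the mice paired) and 0.45 in *T/F* (limma adjusted p = 0.0439).

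The same shares of all genes stand beside the counts of the remaining lists. Of 8 super elongation complex genes, 1 rose in *D/F* (3 rose and 2 fell with the mice paired), and 4 rose and 1 fell in *T/F* (4 and 2 when paired). *Mllt3*, which encodes the reader AF9, rose above 2-fold in both, from 18.2 ± 5.54 to 41.5 ± 4.92 TPM in *D/F* (log2 change 1.18, limma adjusted p = 0.0306) and from 15.6 ± 0.745 to 37.3 ± 4.54 TPM in *T/F* (1.20, limma adjusted p = 0.000777). Of 6 genes of the pausing factors NELF and DSIF, none passed in *D/F* (limma), where 2 rose with the mice paired, and 1 rose and 1 fell in *T/F*. Of 9 other kinases and cyclins of the polymerase tail, 1 fell in *D/F* (3 rose and 2 fell with the mice paired), and 4 rose and 2 fell in *T/F*. *Cdk7*, the kinase of TFIIH, fell in both, from 15.4 ± 1.96 to 8.81 ± 1.22 TPM in *D/F* (log2 change -0.74, limma adjusted p = 0.0408) and from 15.2 ± 1.21 to 8.98 ± 0.563 TPM in *T/F* (-0.70, limma adjusted p = 0.00182). Of 10 genes of the PAF1 complex and elongation chaperones, 2 rose in *D/F* (3 rose and 2 fell with the mice paired), and 4 rose and 2 fell in *T/F*. *Rtf1*, which is tied to the PAF1 complex, had the larger rise of those that passed in both, with log2 changes of 0.77 (limma adjusted p = 0.0373) and 0.57 (limma adjusted p = 0.00232).

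**Figure D4:**
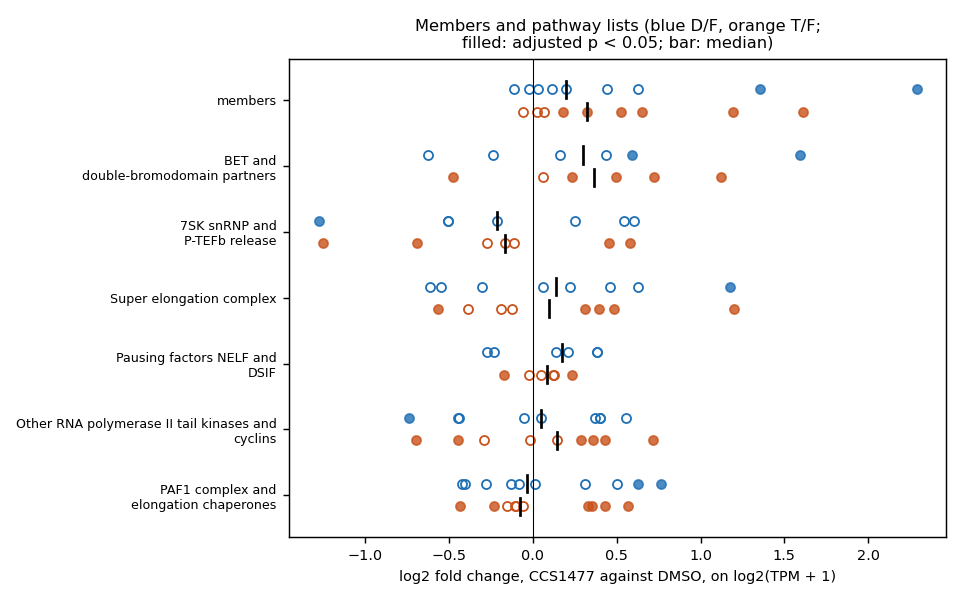
Log2 fold change with CCS1477 against DMSO on log2(TPM + 1) of the 9 genes (members) and of the 6 pathway lists, 1 point per gene, *D/F* in blue above *T/F* in orange, filled where the limma adjusted p is under 0.05, with a black bar at each median. *Hexim1*, at 2.29 and 1.61, is the largest rise drawn, and *Ddx21*, at -1.28 and -1.25, the largest fall.

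Across the 12 libraries and the 11603 genes that averaged 5 TPM or more, the genes whose log2(TPM + 1) followed *Hexim1* most closely were *Sptan1* (Pearson r = 0.996), *Polr2a* (0.995), *Irgq* (0.994), *BC005537* (0.990) and *Ccnyl1* (0.989). *Polr2a*, which encodes the largest subunit of RNA polymerase II, was at 132 ± 5.13 TPM with DMSO and 267 ± 14.8 TPM with CCS1477 for *D/F*, and at 131 ± 2.99 and 206 ± 2.51 TPM for *T/F* (SD, n = 3). *Ccnt1*, which had the most negative change of the 9 genes over both genotypes, was followed most closely by *Prkdc* (0.958), *Hdgfl3* (0.948), *Syn3* (0.939), *Gm15288* (0.937) and *Dennd2a* (0.933). These values describe 12 libraries that share treatments, genotypes and mice, and carry no test.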

How the data were processed

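RNA from c-Kit+ splenocytes of 6 mice, each with DMSO and with CCS1477, was measured in 12 libraries. The authors processed the reads with AltAnalyze and deposited gene-level TPM, which the submitters' processing notes tie to kallisto and the mm10 build; the kallisto version and the annotation are not given in the sources used here. The table was already limited to genes with a highest value of at least 2.00 TPM. The labels name both ribosomal RNA depletion and an mRNA kit. Columns were matched to samples by genotype, the number in the library name and treatment.

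Groups were compared by two-sided limma (version 3.58.1, R 4.3.3, eBayes without trend) of log2(TPM + 1), for genes averaging 1 TPM or more in 1 or both groups, with Benjamini-Hochberg adjustment over all genes tested. Fold changes on this scale understate the change of low genes. Single values had exact two-sided permutation tests of TPM (scipy 1.17.1). The fits were also run on simulated data with independent noise in each library, which lack the likeness between libraries of 1 mouse. The outcome is not given here. Libraries whose names share a number were taken to share a mouse. Their deviations from the group means correlated at 0.539, 0.669 and 0.541 (D/F mice) and at 0.383, 0.354 and 0.496 (T/F mice). Between different mice the correlation was at most 0.141. Mice were not paired in the tests as reported, and the paired value is given where it changes a call of the 9 genes or a count of a pathway list.

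The 9 genes and the gene lists were chosen with earlier results of these data known, and 1 listed gene is not reported here. The pathway genes given with values are those above 2-fold in both genotypes, otherwise the largest rise and fall among those passing in both. Likeness was computed for the genes with the largest rise and fall over both genotypes. Alternatives were other pseudocounts (0.1) and filters (5 TPM, none), rescaling to the median gene, quantile normalization, an eBayes trend, a block for the mouse, 1 fit shared by the 4 groups, a 2-fold limit and leaving out each mouse; leaving out a mouse together with the block was added after seeing the data. Positions are from GENCODE vM21 (GRCm38) and upstream sequences from RefSeq (GRCm38.p6).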

Additional observations from a re-analysis of the deposited data

How the results depend on the processing

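With 3 mice per group, unknown depth and no exact test able to go below 0.1, the calls rest on limma's shared spread. Of 720 values of the 9 genes under the alternatives, 654 kept their direction and side of the threshold, 20 lost the call, 12 gained it and 34 changed sign; no call changed sign. The number of the 9 genes passing in D/F was 2, and 4 with the mouse as a replicate block, 4 in a shared fit of 4 groups, 0 to 3 with 1 mouse left out and 0 to 2 with 1 mouse left out under the block, the 0 there being without replicate 3 (limma; unadjusted p under 0.05 for 4 of the 9 there, and for 2 of the 9 in the unpaired fits that passed 0). In T/F it was 6, and 2 with the 2-fold limit, which by construction keeps fewer genes, and 3 to 5 with 1 mouse left out, or 4 to 5 under the block. Over both genotypes it was 5, and 2 with the 2-fold limit; it was 6, with Cdk9 passing, at the pseudocount of 0.1, the 5 TPM filter, quantile normalization, the eBayes trend and the block, and without D/F replicate 2. Between genotypes with CCS1477 it was 0, and 1 (Hexim1) in the shared fit. The number of all genes passing also varied with 1 mouse left out (limma, unpaired). It was 0 to 3739 in D/F, 3192 to 5122 in T/F and 5660 to 8546 over both genotypes. Without D/F replicate 3 under the block, 5625 of 15545 genes had an unadjusted p under 0.05. In the shared fit of D/F, 4 of the 9 and 6549 of 15501 genes did, beside 4 and 4712 in the main fit. Over both genotypes, 6 of the 9 and 8125 of 15583 genes did in the main fit. The share of all genes passing is not given here for the shared fit or the block with 1 mouse left out. Nor is it given over both genotypes for the pseudocount, the 5 TPM filter, quantile normalization and the eBayes trend. These counts are not a result about the 9 genes. Pairing the mice changed no other call of the 9 genes than those of Aff4 and Mepce in D/F and Cdk9 over both genotypes. The cause of these shifts was not tested.

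The sign changes were of values near 0 that did not pass. After rescaling to the median gene, the log2 change was -0.014 for Ccnt2 in D/F, -0.060 for Ccnt2 and -0.012 for Larp7 in T/F, and -0.037 for Ccnt2 over both genotypes; the difference of the responses was -0.011 for Aff4; and T/F against D/F with DMSO was 0.024 for Cdk9, 0.015 for Ccnt1 and 0.037 for Larp7. After quantile normalization the change was 0.064 for Ccnt1 in D/F and 0.032 over both genotypes, the difference was -0.074 for Aff4, and the genotype contrast was 0.013 for Larp7 with DMSO and -0.0084 for Cdk9 with CCS1477. With 1 mouse left out, the change ranged in D/F from -0.00024 to 0.060 for Ccnt2 and from -0.25 to 0.019 for Larp7, and over both genotypes from -0.061 to 0.048 for Larp7. The difference of the responses ranged from -0.28 to 0.00047 for Brd2, -0.064 to 0.0026 for Ccnt1, -0.039 to 0.021 for Ccnt2 and -0.079 to 0.081 for Aff4. With DMSO the genotype contrast ranged from -0.063 to 0.0059 for Cdk9, -0.091 to 0.055 for Ccnt1, -0.14 to 0.097 for Ccnt2, -0.16 to 0.045 for Hexim1 and -0.13 to 0.098 for Larp7, and with CCS1477 from -0.14 to 0.018 for Brd3 and -0.18 to 0.083 for Ccnt2.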

Other observations

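Within the 4 groups, several of the 9 genes deviated together from mouse to mouse. After the group means were subtracted, the Pearson r over the 12 libraries was 0.917 between *Ccnt1* and *Ccnt2*, 0.897 between *Ccnt2* and *Mepce*, 0.886 between *Mepce* and *Aff4* and 0.852 between *Brd3* and *Ccnt2*. The pair with the highest r of levels, *Brd2* and *Hexim1*, stood at 0.971 over all libraries and at -0.14 once the group means were subtracted. *Larp7* had a negative r within groups with 7 of the other 8 genes. The libraries share mice, and *D/F* replicate 2 was the highest of its group for *Hexim1*, *Ccnt1*, *Ccnt2*, *Brd3*, *Mepce* and *Aff4* under both treatments. These values carry no test.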
